A study of Mus musculus with 6 samples.

Results

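The osteoclast is the multinucleated cell that resorbs bone, and it forms from the same marrow precursors that become macrophages. Macrophage colony-stimulating factor keeps these precursors alive, and the ligand RANKL acts on its receptor RANK to switch on NF-kappa B, AP-1 and calcium signals that converge on the transcription factor NFATc1. NFATc1 acts with MITF on the genes of fusion and resorption, so that precursors join into one cell, attach through the alpha-v beta-3 integrin and secrete acid, phosphatase and proteases onto bone. The genes described here are 9 markers and regulators of that programme, chosen by name among 24394 gene symbols: Tnfrsf11a, which encodes RANK, the transcription factors Nfatc1 and Mitf, the immunoreceptor Oscar, the fusion proteins Dcstamp and Ocstamp, the proton pump subunit Atp6v0d2, the phosphatase Acp5 and the integrin chain Itgb3.

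All 9 symbols were present in the data. They were followed in bone marrow-derived macrophages (BMMs) of C57BL/6 mice at postnatal day 28, grown for 7 days in medium holding the growth factor at 50 ng/ml. The stimulated group was 3 cultures given cartilage fragments at 5 per macrophage for 24 h, and the control group was 3 cultures without fragments. No RANKL is named among the additions to the medium. The marrow came from the mice that supplied the cartilage, which the methods describe as wild-type males of 4 weeks. Xist was listed at 19.8 to 23.6 FPKM in the 6 libraries and the Y-linked Ddx3y, Eif2s3y, Kdm5d and Uty at 0. FPKM are fragments scaled to transcript length and library depth, which allows levels of different genes to be compared. About 699000 to 776000 fragments were estimated to stand behind the values of a library. The methods name a number of reads per sample far above this estimate, and the reason for the difference was not tested. The labels do not say whether the 3 samples of a group were separate animals, so the p-values measure only the spread between these samples. Markers of the labelled cell were present, and the 9 macrophage genes found in the files summed to 29993 to 40714 FPKM. Most of this sum was Lyz2, at 26780 to 37370 FPKM, whose locus held another symbol in all 6 libraries. Csf1r stood at 565 to 670 FPKM, Cd68 at 1089 to 1281 FPKM and Fcgr1, the lowest, at 5.13 to 12.7 FPKM. Lymphocyte genes were listed at 0 in every library, and 7 of the 12 chondrocyte genes found were at 0 throughout, with sums of 1.54 to 4.22 FPKM in control and 1.18 to 2.82 FPKM in stimulated BMMs. Of 9 genes that mark a mature osteoclast, Calcr, the calcitonin receptor, Car2, a carbonic anhydrase, and Siglec15 were listed at 0 in all 6 libraries. The 4 that averaged at least 1 FPKM were Ctsk (20.6 and 16.3 FPKM, control and stimulated mean), Acp5 (26.7 and 47.3), Mmp9 (9.93 and 25.6) and Itgb3 (3.49 and 3.34).

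The 9 genes spanned a wide range of levels in both groups. In control BMMs the mean level was 283 FPKM for Atp6v0d2, 26.7 for Acp5, 25.9 for Mitf, 10.5 for Tnfrsf11a, 5.99 for Nfatc1 and 3.49 for Itgb3. Acp5 and Mitf were not separated in control BMMs, where their ranges overlapped, and in stimulated BMMs every Acp5 value lay above every Mitf value. Ocstamp and Oscar were at the limit of detection, as was Dcstamp except in control replicate 3, where it was listed at 3.03 FPKM. The order of the 6 higher genes was the same in both groups.

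**Figure D1:**
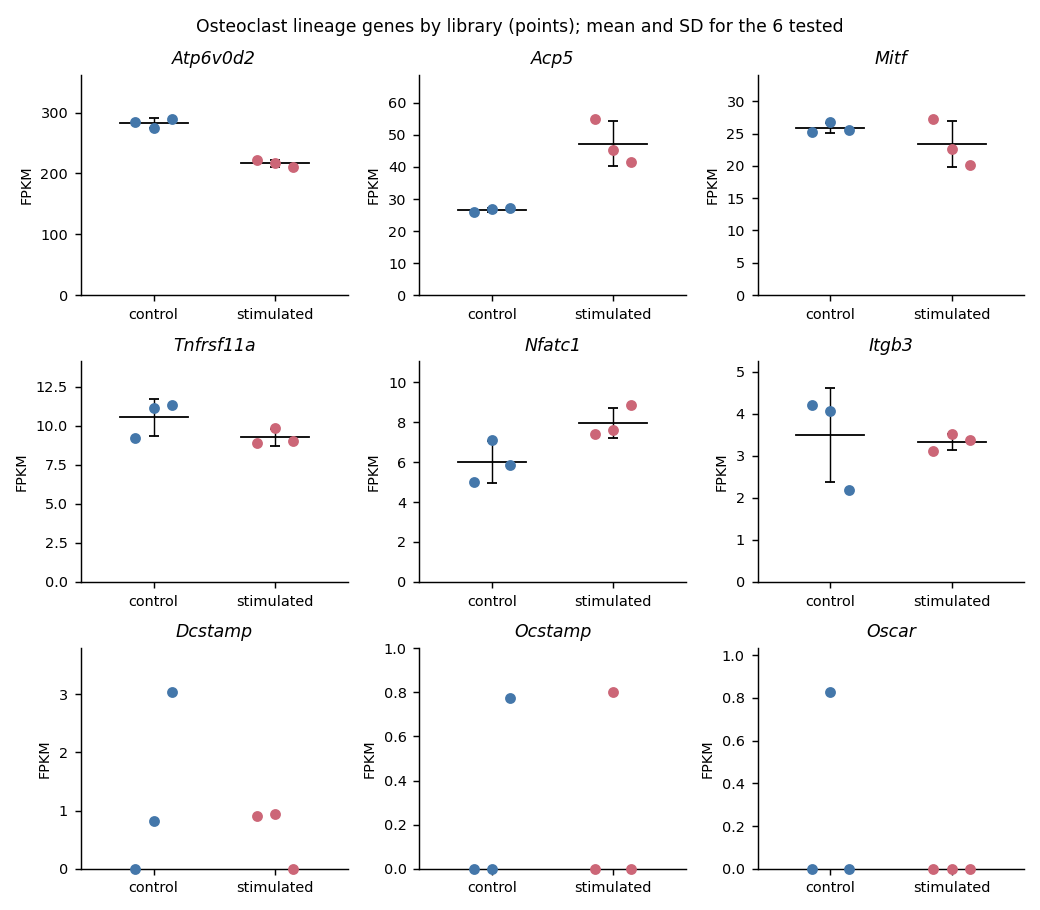
Level of each of the 9 genes in FPKM (vertical axis, starting at 0) in 3 control (blue) and 3 stimulated (red) libraries, with the mean and SD for the 6 genes that were tested. Acp5 and Nfatc1 sit higher and Atp6v0d2 lower in every stimulated library than in any control library, whereas Mitf, Tnfrsf11a and Itgb3 overlap.

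None of the 6 tested genes passed an adjusted p of 0.05 between the groups, against 0.366% of the 10393 genes tested with limma. At an unadjusted p under 0.05 there were 2 of the 6, Acp5 and Atp6v0d2, against 9.19% of all genes. The values of 3 genes did not overlap between groups, which held for 15.9% of all genes tested. Acp5 and Nfatc1 were higher in this way, as were 9.04% of all genes, and Atp6v0d2 was lower, as were 6.89%. When FPKM were replaced by estimated fragments of each gene scaled to the library total, Acp5 and Atp6v0d2 passed, against 2.3% of all genes. This alternative gave the same directions and nearly the same fold changes, and it is set beside the FPKM result for both genes.

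Acp5 encodes tartrate-resistant acid phosphatase, the classical enzyme stain for osteoclasts, which is also made by activated macrophages. It lies at chr9:22126727-22135746 on mm10. Cufflinks listed 26.0, 26.8 and 27.1 FPKM in control replicates 1 to 3 and 55.1, 45.2 and 41.6 FPKM in stimulated replicates 1 to 3. Every stimulated value exceeded every control value, and the stimulated libraries differed more among themselves (47.3 ± 6.99, SD, n = 3) than the controls did (26.7 ± 0.561, SD, n = 3). The mean was 1.78 times that of the controls, with a difference of 0.82 on the log2(FPKM + 0.1) scale (SE 0.15, 95% interval 0.47 to 1.16, limma adjusted p = 0.102). These levels rest on 23 to 47 fragments per library. With scaled fragments the log2 difference was 0.77, its SE was larger at 0.21, and the limma adjusted p was 0.047. An adjusted p depends on the p-values of all genes, and 239 genes were called with scaled fragments against 38 with FPKM. The lower adjusted p is therefore not stronger evidence from Acp5 itself. In bulk RNA, a change in the number of cells that hold a transcript and a change in its amount per cell cannot be told apart.

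Acp5 has 3 annotated start sites, and the transcript that received the reads was not the same one in each library. All Acp5 FPKM were assigned to the most downstream start in control replicate 1 and in the 3 stimulated libraries, and to the next start upstream, at position 22131865, in control replicates 2 and 3. The third start received none. The 2 transcripts that received FPKM are 1353 and 1406 bases long. The 23 to 47 fragments of a library were all placed on 1 transcript. Such an assignment does not show which start a library used. MITF is known to act on the promoter of the most downstream start through an E-box, the hexamer that factors of its class bind. The 250 bases before the 2 starts that received FPKM are shown so that the letters that differ between them can be seen. They are from RefSeq on GRCm38.p6, minus strand, 5′ to 3′, with any E-box of the forms searched in capitals.
Acp5 before the most downstream start, chr9:22130599-22130848: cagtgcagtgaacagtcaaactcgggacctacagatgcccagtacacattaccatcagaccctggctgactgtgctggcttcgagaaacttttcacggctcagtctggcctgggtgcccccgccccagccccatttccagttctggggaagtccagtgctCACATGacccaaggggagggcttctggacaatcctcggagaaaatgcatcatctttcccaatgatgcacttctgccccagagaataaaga
Acp5 before the next start upstream, chr9:22131866-22132115: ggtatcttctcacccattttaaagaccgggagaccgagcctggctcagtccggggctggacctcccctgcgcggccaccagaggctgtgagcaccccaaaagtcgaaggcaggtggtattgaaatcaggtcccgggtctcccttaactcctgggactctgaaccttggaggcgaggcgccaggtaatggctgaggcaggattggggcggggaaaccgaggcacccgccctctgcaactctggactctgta
The first window holds the letters CACATG, 90 bases upstream of the start. Read from the opposite strand of the promoter, that hexamer is spelled CATGTG. The second window holds neither spelling, nor the palindromic form of the E-box that was also searched, which is written CACGTG. One or the other spelling of the first form occurred in 12.3% of 32851 RefSeq windows of the same length, and the palindromic form in 6.02%. RefSeq promoters were found for 4 of the 9 genes, in 8 windows, of which 2 held one of the hexamers. Of all 32851 windows, 17.6% held one. The other window with a match was that of Oscar.

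Atp6v0d2 encodes the d2 subunit of the V-ATPase, the proton pump that acidifies lysosomes and the resorption space, and it is needed for precursors to fuse. It was the most abundant of the 9 genes and lies at chr4:19876838-19922566. The control libraries held 284, 274 and 290 FPKM and the stimulated libraries 223, 217 and 210 FPKM. The groups did not overlap and each was tight (283 ± 8.17 and 217 ± 6.22, SD, n = 3 each). The stimulated mean was 0.766 times the control mean, a log2 difference of −0.38 (SE 0.07, 95% interval −0.54 to −0.23, limma adjusted p = 0.087). This gene had by far the best counting support, 337 to 506 fragments per library. With scaled fragments the log2 difference was −0.39 and the limma adjusted p was 0.00043, and with neither trend nor robust moderation of the variances the adjusted p was 0.539. The study listed Atp6v0d2 as significantly lower in stimulated macrophages, with its own test on these same libraries. Its direction here is therefore not independent evidence.

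Atp6v0d1 encodes the d1 subunit, which takes the place of d2 in most cells, and its level allowed a comparison inside each library. Atp6v0d1 was listed at 126, 135 and 122 FPKM in control and 131, 132 and 124 FPKM in stimulated BMMs, so the levels overlapped. The ratio of Atp6v0d2 to Atp6v0d1 was 2.25, 2.03 and 2.38 in the controls and 1.69, 1.64 and 1.69 in the stimulated libraries. All stimulated ratios were lower than all control ratios, with a mean log2 difference of −0.40 and a two-sided exact permutation p = 0.1, the smallest that 3 against 3 can give. In all 6 libraries more d2 than d1 transcript was listed.

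Of 25 V-ATPase genes 18 were tested with limma and none passed the threshold. Their median log2 difference was −0.06, against 0.00 for all tested genes. An unadjusted p under 0.05 was found for 1, Atp6v0d2, against 9.19% of all genes. Groups did not overlap for 16.7% of the subunits, against 15.9% of all genes. The largest difference was that of the weakly expressed Atp6v1g2, listed at 1.01, 0 and 1.05 FPKM in control and 4.17, 2.17 and 1.12 FPKM in stimulated BMMs (log2 difference 2.18, SE 1.18, limma adjusted p = 0.630). Among subunits with at least 5 FPKM the difference closest to that of Atp6v0d2 was −0.21 (SE 0.09, limma adjusted p = 0.551) for Atp6v1b2, a subunit of the catalytic part. On the other side Atp6v0e, a small membrane subunit, stood at 0.21 (SE 0.10, limma adjusted p = 0.585). Tcirg1, the a3 subunit that osteoclasts place in the ruffled border, had 258 ± 20.2 FPKM in control and 243 ± 9.61 FPKM in stimulated BMMs (SD, n = 3 each). The other 7 genes were listed at 0 in every library. Among them Atp6v0a4 and Atp6v0c shared a Cufflinks locus with another symbol in all 6 libraries, and a listed 0 there need not mean that reads were missing.

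**Figure D2:**
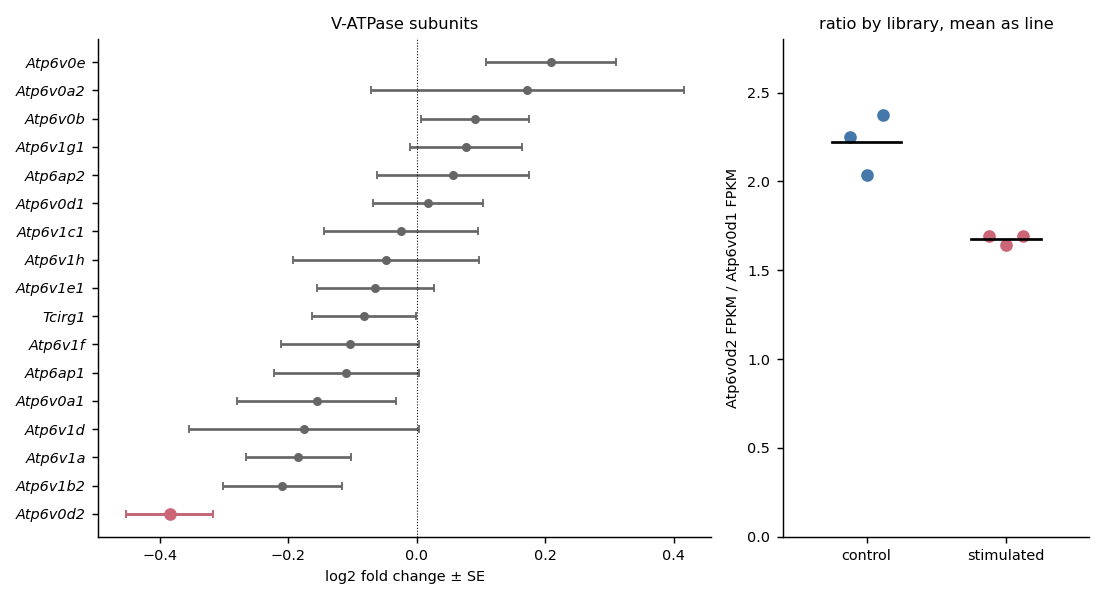
Left, log2 difference between stimulated and control BMMs with its SE (horizontal axis) for V-ATPase subunits whose 2 group means summed to at least 10 FPKM, with Atp6v0d2 in red at −0.38. Right, the ratio of Atp6v0d2 to Atp6v0d1 FPKM in each library (vertical axis from 0) with the group mean as a line, where the 3 stimulated values of 1.64 to 1.69 lie below the 3 control values of 2.03 to 2.38.

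Nfatc1 is regarded as the master regulator of osteoclast formation, induced and then amplified by its own product after RANK is engaged. Its locus is chr18:80606205-80713071. The controls held 5.00, 7.10 and 5.87 FPKM and the stimulated libraries 7.42, 7.60 and 8.84 FPKM. The groups were separated by a narrow gap, since control replicate 2 lay just below stimulated replicate 1. The log2 difference of 0.41 had an SE of 0.24 and a 95% interval from −0.13 to 0.96 (limma adjusted p = 0.648), so both no change and an increase larger than that of Acp5 lie within it. Between 16 and 27 fragments per library supported these levels.

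The transcripts of Nfatc1 begin at 2 annotated starts. The downstream start, at position 80708173, received all of the FPKM in 5 libraries. The upstream start, from which the form amplified during differentiation is known to be made, was listed at 1.51 FPKM in stimulated replicate 3 and at 0 in the other 5 libraries. Of the transcripts from the downstream start the one with the nearest 3′ end, NM_016791, held 1.42, 1.20 and 1.79 FPKM in control and 4.64, 1.59 and 2.93 FPKM in stimulated BMMs. These overlapped, through stimulated replicate 2, and the log2 difference of 0.90 (SE 0.68) had a limma adjusted p of 0.808. NM_001164111 held 3.57, 1.39 and 4.08 FPKM in control and 0, 3.87 and 0 FPKM in stimulated BMMs. NM_001164112 held 0, 4.52 and 0 FPKM in control and 2.78, 2.15 and 4.39 FPKM in stimulated BMMs. Tested apart, these 2 stood at −3.06 and 3.10 on the log2 scale (limma adjusted p = 0.808 for each), and the 3 transcripts did not share a direction.

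Mitf encodes a basic helix-loop-helix factor that partners NFATc1 on resorption genes. The gene lies at chr6:97807058-98021358. Its summed level was 25.3, 26.8 and 25.5 FPKM in control and 27.3, 22.7 and 20.2 FPKM in stimulated BMMs. Stimulated replicate 1 was the highest of the 6 and stimulated replicate 3 the lowest, so the groups overlapped. The log2 difference was −0.16 (SE 0.17, 95% interval −0.54 to 0.23, limma adjusted p = 0.811). It was −0.27 without stimulated replicate 1, when the groups no longer overlapped, and −0.06 without stimulated replicate 3. Rows carrying the symbol alone gave 8.27, 26.8 and 17.2 FPKM in control and 12.2, 22.7 and 13.1 FPKM in stimulated BMMs, because in 4 libraries part of the reads had been assigned to a transcript that Cufflinks assembled at the same locus.

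In 3 of these 4 libraries the assembled Mitf transcript shared both ends with a reference transcript and was 18 bases shorter. The pairs were 4872 against 4890 bases in control replicate 1 and stimulated replicate 3, and 4759 against 4777 bases in stimulated replicate 1. In control replicate 3 the assembled transcript began elsewhere, at position 97829455. Mitf is known for an alternative exon form that adds 18 bases in front of the DNA-binding domain, and GENCODE vM21 places it at the 5′ end of an exon that 5 of its transcripts carry in the long form and 2 in the short form. The exon is shown, on GRCm38 and the plus strand, because the length of its variable stretch, in capitals, equals that difference in length.
Mitf exon, chr6:98006123-98006197: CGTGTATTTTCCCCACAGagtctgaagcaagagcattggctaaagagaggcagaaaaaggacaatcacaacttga
The deposited values give lengths and no exons, so whether the assembled transcripts lack these bases was not tested. The assembled share of Mitf was 17.1 of 25.3 FPKM in control replicate 1, 15.1 of 27.3 FPKM in stimulated replicate 1 and 7.11 of 20.2 FPKM in stimulated replicate 3. The start used by the melanocyte form, at position 97991783, was listed at 12.7 FPKM in control replicate 2, at 6.11 FPKM in stimulated replicate 3 and at 0 in the other 4 libraries.

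Tnfrsf11a, at chr1:105780723-105847981, encodes RANK. The receptor was transcribed in all 6 libraries, at 9.18, 11.1 and 11.3 FPKM in control and 8.91, 9.87 and 9.00 FPKM in stimulated BMMs. The ranges overlapped through control replicate 1. The log2 difference was −0.18 (SE 0.19, 95% interval −0.63 to 0.27, limma adjusted p = 0.815). Rows with the symbol alone read 4.58, 0 and 11.3 FPKM in control and 8.91, 9.87 and 4.09 FPKM in stimulated BMMs, which turned the log2 difference to 2.05. The 0 in control replicate 2 did not mean that reads were missing, since an assembled transcript of 5017 bases, 5 fewer than the reference, held 11.1 FPKM there. Tnfsf11, the gene of RANKL, was listed at 0 in 4 libraries and at 0.659 and 0.662 FPKM in the remaining ones. Tnfrsf11b, the decoy receptor osteoprotegerin, reached no more than 0.553 FPKM.

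**Figure D3:**
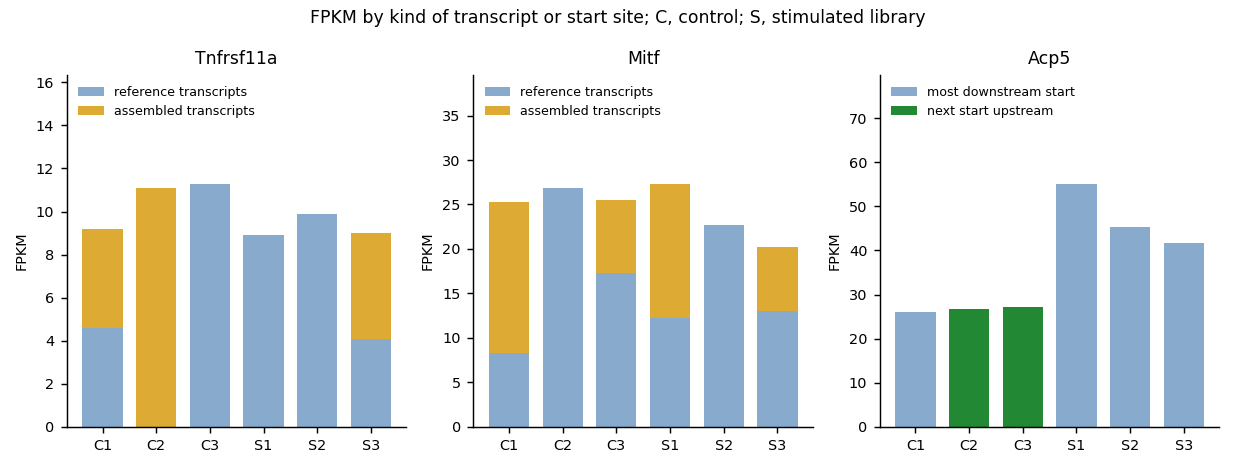
FPKM (vertical axis from 0) in control (C1 to C3) and stimulated (S1 to S3) libraries, stacked by reference and assembled transcripts for Tnfrsf11a and Mitf and by start site for Acp5. The height of a Tnfrsf11a bar stays between 8.91 and 11.3 FPKM although the reference share runs from 0 to all of it, and the upstream Acp5 start carries all FPKM in control replicates 2 and 3.

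Itgb3, at chr11:104608000-104670471, encodes the beta-3 chain with which osteoclasts grip bone. It was listed at 4.20, 4.07 and 2.19 FPKM in control and 3.13, 3.51 and 3.37 FPKM in stimulated BMMs. The stimulated values all fell between the lowest and highest control. The log2 difference was −0.01 with an SE of 0.36 and a 95% interval from −0.84 to 0.82 (limma adjusted p = 0.998), and its sign turned to 0.15 without control replicate 1. The partner chain Itgav stood at 15.7 ± 1.98 FPKM in control and 13.1 ± 2.15 FPKM in stimulated BMMs (SD, n = 3 each). The ratio of Itgb3 to Itgav was 0.257, 0.235 and 0.163 in control and 0.266, 0.292 and 0.216 in stimulated BMMs, overlapping, with a two-sided exact permutation p = 0.4.

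The 3 remaining genes were scarcely detected. Dcstamp, at chr15:39745930-39760938, encodes the membrane protein without which precursors do not fuse. It was listed at 0, 0.823 and 3.03 FPKM in control and 0.905, 0.944 and 0 FPKM in stimulated BMMs, which is 5 fragments in all controls together and 2 in the stimulated libraries. Ocstamp, at chr2:165395450-165400394, a related fusion protein, had 1 fragment in each group, in control replicate 3 (0.776 FPKM) and stimulated replicate 2 (0.8 FPKM). Oscar, at chr7:3609815-3616157, a collagen receptor that signals through the FcR gamma chain, had 1 fragment, in control replicate 2 (0.825 FPKM). A count of 0 allows up to 3 fragments, or 2.21 to 2.63 FPKM for these transcripts, so a listed 0 does not show that a transcript was missing. The floor covers counting error only. With the filter on low FPKM removed, limma gave log2 differences of −0.49 for Dcstamp (SE 1.48, adjusted p = 0.947), 0.01 for Ocstamp (SE 1.30, adjusted p = 0.9999) and −1.07 for Oscar (SE 1.09, adjusted p = 0.815), and differences of such sizes were within the error.

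The pathways around the 9 genes were followed in 8 lists, of which 136 symbol entries were tested, and a gene could stand in more than one list. These lists were chosen with earlier results of these data known. The share of a list set beside that of all genes is therefore a description and no test of the list. One entry passed the threshold, where 0.366% of all genes did: Mmp14, a membrane-bound metalloproteinase of the resorption list. It was listed at 60.3, 67.1 and 74.5 FPKM in control and 162, 141 and 119 FPKM in stimulated BMMs, with no overlap. The log2 difference was 1.06 (SE 0.14, limma adjusted p = 0.028). The call was lost without control replicate 1 (adjusted p = 0.103), control replicate 2 (0.104), stimulated replicate 1 (0.137) or stimulated replicate 2 (0.125), and with scaled fragments (0.322), although the log2 difference stayed between 0.95 and 1.18. It was also lost without moderation of the variances (0.253) and with the replicate block (0.126). With reference transcripts only, Mmp14 read 60.3, 67.1 and 0 FPKM in control and 0, 0 and 119 FPKM in stimulated BMMs, and the log2 difference turned to −2.80 (limma adjusted p = 0.831). The study also listed Mmp14 and Mmp9 as significantly higher, with its own test on these libraries. Among other genes named here without a call it listed Acp2, Cd81, Lcp2 and Tgfbi as higher. It listed Atp6v1b2, Id3, Lgmn and Col1a1 as lower.

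Receptor signalling genes, 18 of 20 tested, gave no call (4 at an unadjusted p under 0.05, against 9.19% of all genes), with 4 higher and 2 lower without overlap (33.3% against 15.9% of all genes) and a median log2 difference of 0.03. Csf1r, the receptor of macrophage colony-stimulating factor, stood at 613 ± 37.8 and 617 ± 52.4 FPKM (SD, n = 3 each). Nfkb2, the precursor of the non-canonical NF-kappa B subunit p52, read 33.2, 30.8 and 30.0 FPKM in control and 49.1, 53.1 and 45.7 FPKM in stimulated BMMs. Its groups did not overlap, and the log2 difference of 0.65 (SE 0.13) had a limma adjusted p of 0.123, which was 0.0085 with scaled fragments. Relb, its partner, stood at 0.40 (SE 0.16, limma adjusted p = 0.525) and the kinase Src at 0.44 (SE 0.22, limma adjusted p = 0.588).

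The costimulation and calcium list, 13 of 15 tested, also gave no call and had a median log2 difference of −0.05. At an unadjusted p under 0.05 this list held 3 genes, against 9.19% of all genes. Its adaptors were the most abundant signalling transcripts around Oscar, with Tyrobp, which encodes DAP12, at 3881 ± 283 and 3987 ± 152 FPKM and Fcer1g, the FcR gamma chain with which OSCAR pairs, at 1024 ± 42.2 and 1148 ± 97.3 FPKM (SD, n = 3 each). Lcp2, an adaptor below SYK, stood at 0.55 (SE 0.21, limma adjusted p = 0.484). Ppp3cb, a catalytic subunit of calcineurin, which activates NFATc1, stood at −0.41 (SE 0.32, limma adjusted p = 0.748), and at −0.72 without control replicate 2 and −0.17 without control replicate 3.

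The transcription factors beside Nfatc1 and Mitf, 19 of 20 tested with those 2 included, gave no call and had a median log2 difference of −0.01. None had an unadjusted p under 0.05, against 9.19% of all genes. Groups did not overlap for 1 gene, Nfatc1 itself, or 5.26% against 15.9% of all genes. Spi1, the factor PU.1 of the myeloid lineage, was at 308 ± 15.1 and 306 ± 7.61 FPKM (SD, n = 3 each). Fos, which is required for Nfatc1 induction, stood at 0.40 (SE 0.23, limma adjusted p = 0.648), and at 0.26 without control replicate 1 and 0.19 without stimulated replicate 2. Pparg stood at −0.36 (SE 0.38, limma adjusted p = 0.811).

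Genes that restrain osteoclast formation, 14 of 16 tested, gave no call and had a median log2 difference of −0.08, with 6 means higher and 8 lower. Groups did not overlap for 4 higher genes and 1 lower gene, or 35.7% against 15.9% of all genes. At an unadjusted p under 0.05 there were 5 genes, against 9.19% of all genes. Tnfaip3, which encodes the NF-kappa B inhibitor A20, read 16.5, 17.4 and 13.5 FPKM in control and 27.0, 29.2 and 31.0 FPKM in stimulated BMMs. The log2 difference was 0.88 (SE 0.17) with a limma adjusted p of 0.113, and 0.00094 with scaled fragments. With reference transcripts only it read 9.08, 14.8 and 18.8 FPKM in stimulated BMMs, and the log2 difference turned to −0.20 (limma adjusted p = 0.841). The gene lower without overlap was Id3, an inhibitor of helix-loop-helix factors, at 188, 196 and 189 FPKM in control and 155, 132 and 147 FPKM in stimulated BMMs (log2 difference −0.40, SE 0.09, limma adjusted p = 0.140). Nfkbie, another NF-kappa B inhibitor, stood at 0.96 (SE 0.29, limma adjusted p = 0.323). Rcan1, a calcineurin inhibitor, stood at 0.67 (SE 0.34, limma adjusted p = 0.6), and at 0.35 without control replicate 3. Irf8, which holds precursors in the macrophage state, stood at 0.00 (SE 0.14).

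Among fusion genes, 14 of 18 tested, 5 were higher and 3 lower without overlap, a share of 57.1% against 15.9% of all genes. Atp6v0d2 and Mmp9 are counted in that share, and the list was chosen with earlier results known. None passed the threshold, and 6 had an unadjusted p under 0.05, against 9.19% of all genes. Mmp9, a gelatinase also counted with resorption, was listed at 6.13, 8.55 and 15.1 FPKM in control and 21.7, 30.6 and 24.3 FPKM in stimulated BMMs. Its log2 difference of 1.44 (SE 0.33) had a limma adjusted p of 0.154, and 0.0051 with scaled fragments. The tetraspanin Cd81 stood at 0.48 (SE 0.14, limma adjusted p = 0.305), and Atp6v0d2 was the lowest of the tested fusion genes.

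Of the resorption genes, 16 of 20 tested, 5 were higher and 2 lower without overlap (43.8% against 15.9% of all genes). An unadjusted p under 0.05 was found for 6, against 9.19% of all genes, and the median log2 difference was −0.06. Acp5 was not the only acid phosphatase with separated groups, since Acp2, the lysosomal form, had 57.3 ± 4.68 FPKM in control and 86.6 ± 2.00 FPKM in stimulated BMMs (SD, n = 3 each), a log2 difference of 0.60 (SE 0.11) with a limma adjusted p of 0.102, and 7.6e-05 with scaled fragments. Ctsk, the collagenase of the osteoclast, read 23.6, 22.4 and 15.8 FPKM in control and 13.7, 16.3 and 18.9 FPKM in stimulated BMMs, which overlapped (log2 difference −0.33, SE 0.22, limma adjusted p = 0.702). The summed level of the mature osteoclast markers was 59.9 to 64.0 FPKM in control and 88.2 to 97.4 FPKM in stimulated BMMs, and this sum contains Acp5 and Mmp9.

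The integrin and sealing zone list, with all 24 genes tested, had a median log2 difference of 0.08, 4 higher and 2 lower without overlap (25% against 15.9% of all genes) and no call (2 at an unadjusted p under 0.05, against 9.19% of all genes). Spp1, osteopontin, a ligand of the alpha-v beta-3 integrin, was the most abundant at 639 ± 10.3 and 738 ± 25.1 FPKM (SD, n = 3 each), a log2 difference of 0.21 (SE 0.05) with a limma adjusted p of 0.198, and 0.039 with scaled fragments. The scaffold Pstpip1 stood at 0.37 (SE 0.18, limma adjusted p = 0.597) and at −0.0081 with scaled fragments. Cbl, a ubiquitin ligase downstream of SRC, stood at 0.31 (SE 0.19, limma adjusted p = 0.670) and at 0.73 with scaled fragments (adjusted p = 0.015). With reference transcripts only, Pstpip1, Cbl and Src turned to −0.59, −6.74 and −1.72.

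**Figure D4:**
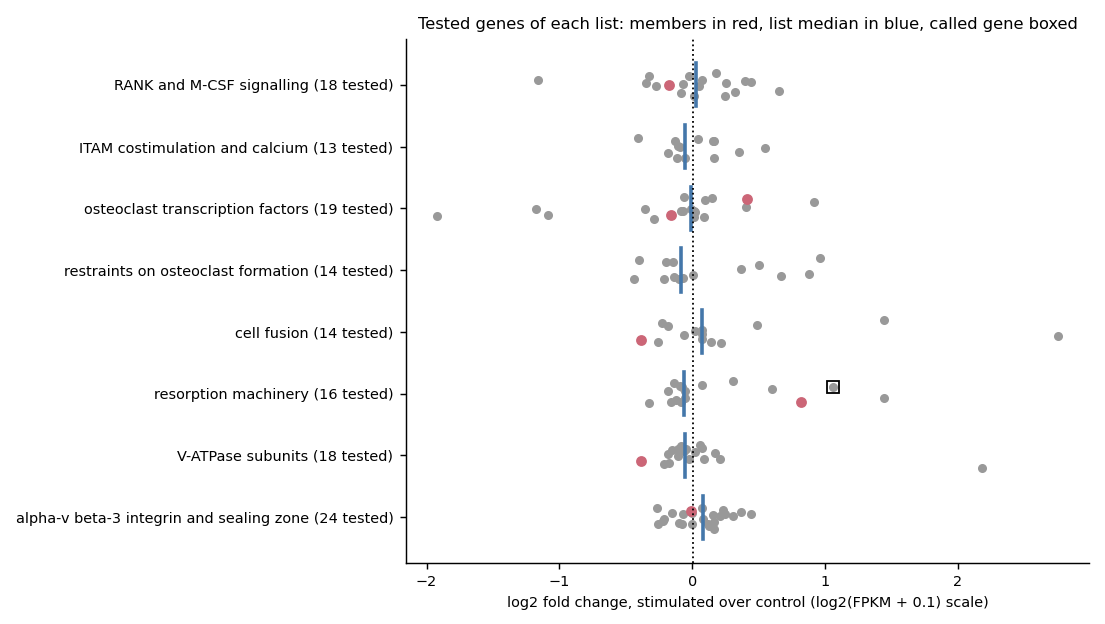
Log2 difference between stimulated and control BMMs (horizontal axis) of every tested gene in 8 lists (rows), with the 9 genes' tested members in red, the list median as a blue bar and the median of all tested genes as a dotted line. The medians lie between −0.08 and 0.08, and Mmp14, boxed, is the only point past the threshold.

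Markers of cell types were read beside these results. Of the 9 macrophage genes Adgre1 and Cd14 passed the threshold, where 0.366% of all genes did. Their log2 differences were 0.59 (SE 0.06, limma adjusted p = 0.0097) and 0.63 (SE 0.09, limma adjusted p = 0.039). Itgam was higher without overlap (0.26, SE 0.06, limma adjusted p = 0.182) and Lgmn lower (−0.32, SE 0.06, limma adjusted p = 0.118). Lyz2 and Csf1r stood at −0.01 and 0.01. The 12 osteoblast and fibroblast genes summed to 234 to 255 FPKM in control and 164 to 179 FPKM in stimulated BMMs, with Bglap at 0 throughout, Col1a1 at −0.72 (SE 0.12, limma adjusted p = 0.085) and none of the 8 tested genes past the threshold. This sum was lower in every stimulated library than in any control library, as were Atp6v0d2 and 6.89% of all tested genes. Genes of neutrophils and their precursors summed to 828 to 948 FPKM in control and 755 to 1127 FPKM in stimulated BMMs, which overlapped. Their part in the differences of Acp5, Nfatc1 and Atp6v0d2 was not tested.

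The genes whose pattern over the 6 libraries was closest to each of the 3 members of at least 10 FPKM were found by the root-mean-square difference of centred log2 values, among 5523 other genes of at least 10 FPKM. For Acp5 they were Tctex1d2 (0.07), Timm50 (0.09) and Tgfbi (0.09). Tgfbi read 86.2, 83.3 and 74.7 FPKM in control and 163, 127 and 127 FPKM in stimulated BMMs. For Atp6v0d2 they were Lgals3, Naa50 and Lgmn, at 0.04 to 0.05. Lgals3, galectin-3, read 2272, 2328 and 2365 FPKM in control and 1851, 1748 and 1826 FPKM in stimulated BMMs. For Mitf they were Bri3, Ccpg1 and Sel1l, each at 0.04. This likeness over 6 libraries is a description.

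**Figure D5:**
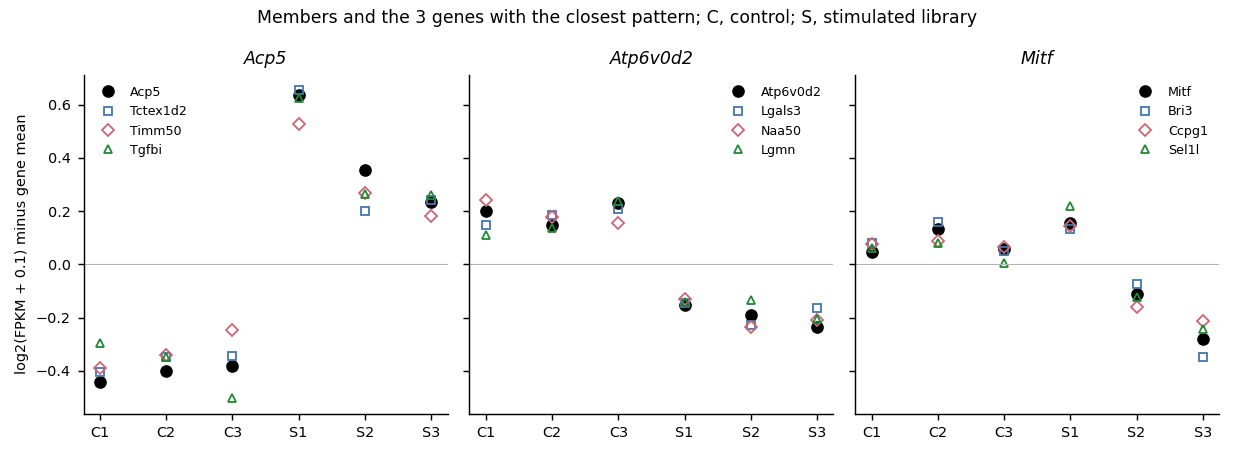
Log2(FPKM + 0.1) minus the mean of the gene over 6 libraries (vertical axis) in control (C1 to C3) and stimulated (S1 to S3) libraries for Acp5, Atp6v0d2 and Mitf, in black, and the 3 genes closest to each, in colour. The Acp5 group is highest in stimulated replicate 1, the Atp6v0d2 group is lower in all stimulated libraries, and the Mitf group is lowest in stimulated replicate 3.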

How the data were processed

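RNA-seq was done on 3 control and 3 stimulated BMM cultures, and groups were taken from the sample labels. Paired-end sequencing gave 100-bp reads. Per the labels' processing notes and the methods, TopHat, Bowtie and Cufflinks were the authors' tools and mm10 their build, and versions are not given in the sources used here. The deposited FPKM are Cufflinks values per transcript, and the deposited coverage is the read signal listed beside them. Here FPKM were summed per gene symbol. Transcripts that Cufflinks had assembled without a symbol were added where their locus held 1 symbol, a rule set after the values were seen, and the symbol's own rows alone are an alternative. Fragments were estimated from coverage and length. Of the values up to 8 fragments, from genes with a single transcript above a length limit, 95.0% to 95.6% lay within 0.1 of a whole number. The length correction of each library was chosen to make this share largest, so the share is no independent check of the estimate. Genes with several transcripts were not part of it. Starts were raised by 1.

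A gene was tested if it averaged 1 FPKM or more over the libraries. The two-sided test was that of limma 3.58.1 in R 4.3.3, on log2(FPKM + 0.1), with trend and robust set in eBayes. The p-values of all 10393 genes were adjusted together by Benjamini-Hochberg, and the threshold was 0.05. Ratios within a library were compared with an exact permutation test. The procedure was tested on simulated data. Python 3.11.15 with pandas 2.3.3, numpy 2.4.6 and matplotlib 3.10.9 made the tables and figures.

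The members and lists were chosen with earlier results of these data known. In each list, the genes named are those past the threshold and up to 3 more with the largest log2 difference among those of at least 5 FPKM, plus abundant or defining members for their levels; Tnfsf11, Tnfrsf11b, Csf1r, Irf8, Id3, Atp6v1g2, Ctsk, Tcirg1 and the per-library values were picked after being seen. Alternatives changed the pseudocount, filter, scaling, moderation, weights, replicate block, transcript set and unit, or left out each library. Scaled fragments at a pseudocount of 1 were added after seeing the data.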

Additional observations from a re-analysis of the deposited data

How the results depend on the processing

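None of the 6 tested genes was called under the alternatives on FPKM in which it was tested, nor Dcstamp, Ocstamp or Oscar without the filter, and 2 were called with scaled fragments at either pseudocount. Over all genes 38 were called, 18 without trend and robust moderation, 18 with the replicate block, 19 with reference transcripts only, 239 with scaled fragments and 268 with scaled fragments at a pseudocount of 1, and 8 to 30 when each library was left out, fewest without stimulated replicate 1. With scaled fragments, and likewise at a pseudocount of 1, list calls rose to 1 for receptor signalling, 3 for restraints, 3 for fusion, 1 for the V-ATPase and 2 for integrin and sealing zone. For resorption they were 4 and then 5. Of all 10393 genes, 2.3% passed with scaled fragments. The single resorption call went to 0 without moderation, with the replicate block and with reference transcripts only, and was 0 to 1 when a library was left out. With reference transcripts only, the log2 difference reversed to 2.05 for Tnfrsf11a, −1.72 for Src, −0.20 for Tnfaip3, −2.80 for Mmp14, −0.59 for Pstpip1 and −6.74 for Cbl, since the reads of assembled transcripts are then missing. Pstpip1 was −0.0081 with scaled fragments and −0.0079 at a pseudocount of 1. With transcript lines kept apart, reversed lines gave −5.39 (NM_001102404 of Acp5), 0.080 (NM_001113198 of Mitf), −3.06 (NM_001164111 of Nfatc1) and 2.05 (Tnfrsf11a). Leaving out a library moved Itgb3 between −0.30 and 0.15 and Pparg between −0.67 and 0.031. Other causes were not tested. Same-numbered samples correlated at −0.09, 0.07 and 0.03 in their deviations from the group means, and differently numbered ones at −0.15 to 0.11. The labels do not say whether the numbers pair the samples. The deviations of 3 samples sum to 0 in each group, so these correlations cannot decide it. Under the replicate block the log2 difference of Acp5 was 0.82 (limma adjusted p = 0.239). That of the Atp6v0d2 to Atp6v0d1 ratio was −0.40 (exact sign permutation p = 0.25, the smallest that 3 pairs can give).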
